A study of Mus musculus with 8 samples.

Results

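The endothelin system was represented by 7 of the 24963 genes in the deposited table. These were the ligand genes Edn1, Edn2 and Edn3, the receptor genes Ednra and Ednrb, and the converting enzyme genes Ece1 and Ece2, all taken by symbol. The family was selected on 1 measured value, the low FPKM of Ednrb in the Nr2f2 d/d uterus, so the difference in Ednrb is a description without a test. Of the 7 genes, 5 had a mean of at least 0.5 FPKM over all libraries and entered the test across genes, whereas Edn2 and Ece2 lay under that level.

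Endothelins are short peptides that act on nearby cells. Furin-like convertases cut their precursors to inactive big endothelins, and the endothelin-converting enzymes cut these to the active form. EDNRA binds endothelin-1 and endothelin-2 more tightly than endothelin-3, whereas EDNRB binds all of them about equally. Both receptors couple to G proteins. On smooth muscle, EDNRA raises calcium and contracts vessels and myometrium, and on endothelium EDNRB releases nitric oxide and removes endothelin-1 from the circulation. During development, EDN3 and EDNRB are needed by the neural crest cells that form melanocytes and enteric neurons.

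RNA from the whole uterus at GD3.5 was sequenced in 8 libraries. The 4 control libraries were Nr2f2 f/f, with floxed Nr2f2 and no Cre (the sample labels call them WT). The 4 Nr2f2 d/d libraries came from mice that carried the same floxed alleles and 1 Pgr allele with a Cre knock-in (Pgr Cre/+), so that they also had only 1 intact Pgr allele. All mice were C57B6/J females, given as 8 weeks old at mating. Their mates were vasectomized, so no embryo was present, and no treatment was given. The Cre acts in cells that express Pgr, and which uterine cells had lost Nr2f2 was not measured in these libraries.

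Values are FPKM, in which fragments of a gene are scaled to the length of its exons and to the total of the library. Library totals recovered from the values were 61475000 to 77950000 fragments in Nr2f2 f/f and 61750000 to 92675000 in Nr2f2 d/d. Nr2f2 was 25.3, 21.8, 25.7 and 23.5 FPKM in control replicates 1 to 4, against 9.66, 9.42, 6.90 and 9.74 FPKM in Nr2f2 d/d replicates 1 to 4. Every Nr2f2 d/d library lay below every control, at a log2 fold change of -1.39 (standard error 0.118, limma with Benjamini-Hochberg adjustment, adjusted p = 0.00549). Smooth muscle (Acta2, 276 to 652 FPKM), epithelial (Epcam, 68.7 to 122 FPKM), stromal (Dcn, 357 to 719 FPKM) and endothelial (Pecam1, 27.6 to 70.9 FPKM) markers were present in all 8 libraries. In whole tissue, fewer cells of a type and less RNA per cell cannot be told apart. Nr2f2 f/f replicates 1 and 2 stood apart in the gland protease gene Prss28, with 49.96 and 510 FPKM against at most 6.99 FPKM in the other 6 libraries, whereas the gland factor gene Foxa2 was 5.15 and 3.24 FPKM there and 4.02 to 7.74 FPKM in the others. Both were singled out after their values were seen.

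Ednrb, the receptor that binds every endothelin, was the member with the largest decrease in Nr2f2 d/d. Its gene lies at chr14:103814625-103844402 (mm10, minus strand). It was 15.6, 30.1, 21.2 and 15.9 FPKM in control replicates 1 to 4, against 3.96, 3.94, 3.22 and 3.25 FPKM in Nr2f2 d/d replicates 1 to 4. All 4 Nr2f2 d/d libraries lay far below the lowest control, and they were close to each other. The means were 20.7 ± 6.77 FPKM in Nr2f2 f/f and 3.59 ± 0.411 FPKM in Nr2f2 d/d (SD, n = 4 each), so that 17.4% of the control mean was left. The log2 fold change was -2.33 (standard error 0.203), and 8 of the 14323 genes tested had a lower one. The spread relative to the mean was 32.7% in the controls and 11.4% in Nr2f2 d/d. The values rest on 4167 to 7899 fragments per library in Nr2f2 f/f and 1042 to 1273 in Nr2f2 d/d, so counting error is small beside the spread between libraries. The highest value, in Nr2f2 f/f replicate 2, came from the library with the highest Prss28 and Spink1 and the lowest Foxa2 and Lif. Nr2f2 f/f replicate 1, which also stood apart in Prss28, had the lowest Ednrb of the controls. The part of the gland genes in Ednrb was not tested. Without Nr2f2 f/f replicate 2 the control mean was 17.6 FPKM and the log2 fold change was -2.13.

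Ednra, the receptor through which endothelin-1 contracts smooth muscle, lies at chr8:77663031-77724464 (mm10, minus strand). It was 8.995, 7.49, 7.64 and 6.39 FPKM in control replicates 1 to 4, against 5.13, 6.61, 5.98 and 7.89 FPKM in Nr2f2 d/d replicates 1 to 4. The groups overlapped, with 2 of 4 Nr2f2 d/d libraries below all controls and 1, replicate 4, above 3 of the 4 controls. The means were 7.63 ± 1.07 and 6.40 ± 1.16 FPKM (SD, n = 4 each). The log2 fold change of -0.24 (standard error 0.142) did not pass the test (limma with Benjamini-Hochberg adjustment, adjusted p = 0.364).

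Ednrb and Ednra traded places as the more abundant receptor mRNA. In the controls Ednrb made up 63.4% to 80.1% of the receptor FPKM of a library, and in Nr2f2 d/d 29.2% to 43.5%. The ratio of Ednrb to Ednra was 1.73 to 4.02 in Nr2f2 f/f and 0.412 to 0.771 in Nr2f2 d/d, above 1 in all 4 controls and below 1 in all 4 Nr2f2 d/d libraries. Their summed FPKM was 22.3 to 37.6 in Nr2f2 f/f and 9.09 to 11.1 in Nr2f2 d/d. These shares and sums contain Ednrb, on which the family was chosen, and they were not tested.

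**Figure D1:**
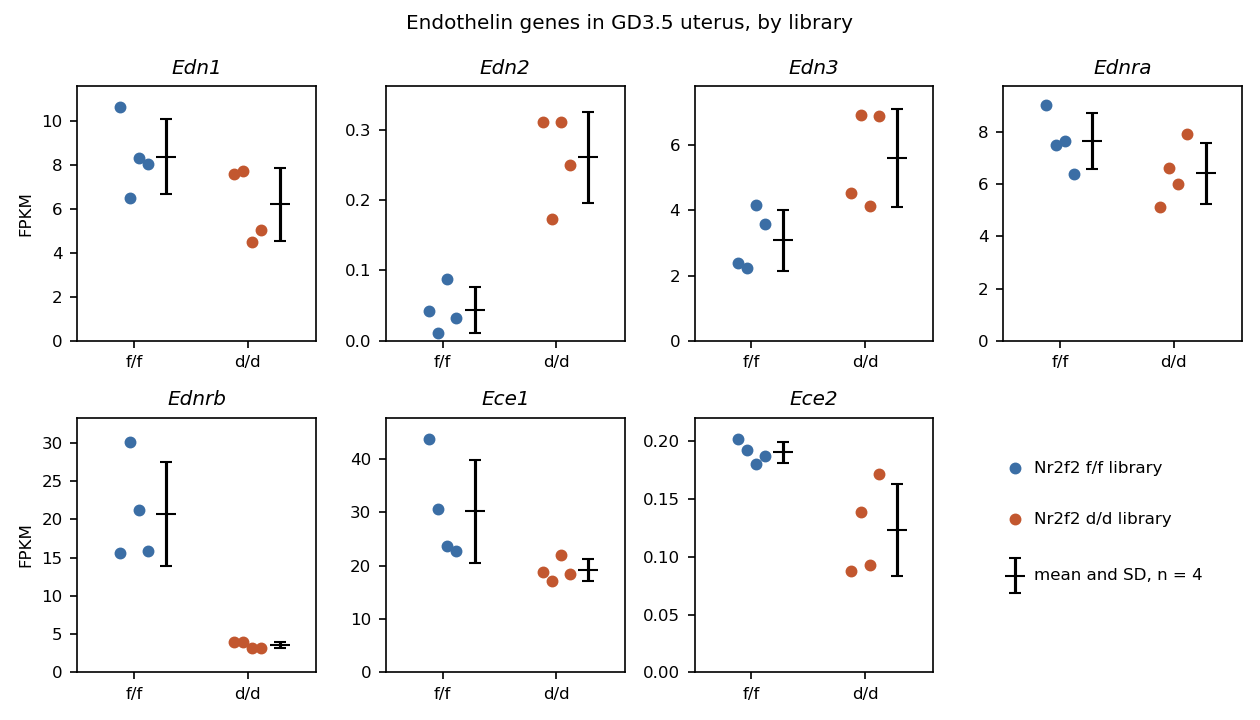
FPKM of each endothelin gene (y axis, from 0, with its own scale in each panel) in the 4 Nr2f2 f/f and 4 Nr2f2 d/d libraries; each point is 1 library, and the black bars are the mean and SD (n = 4). The groups do not overlap for Ednrb, Ece1 and Ece2, which are lower in Nr2f2 d/d, or for Edn2, which is higher, while those of Edn1, Edn3 and Ednra overlap.

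The upstream sequences of Ednrb and Ece1 are shown because these were the receptor and the converting enzyme whose values did not overlap between the genotypes and exceeded the filter. Each is the 250 bases before the start that RefSeq gives (build GRCm38.p6), read 5′ to 3′ on the strand of the gene. Ednrb is chr14:103843702-103843951 on the minus strand, inside the first intron of the longest annotated transcript, which starts further upstream. Ece1 is chr4:137861987-137862236 on the plus strand, before the start of the whole gene. Capitals mark the motif CCAAT, here read as its reverse complement ATTGG.
Ednrb: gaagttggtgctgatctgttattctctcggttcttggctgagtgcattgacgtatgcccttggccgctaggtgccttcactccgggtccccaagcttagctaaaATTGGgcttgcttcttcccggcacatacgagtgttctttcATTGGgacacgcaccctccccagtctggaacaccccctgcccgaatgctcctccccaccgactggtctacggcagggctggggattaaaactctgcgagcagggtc
Ece1: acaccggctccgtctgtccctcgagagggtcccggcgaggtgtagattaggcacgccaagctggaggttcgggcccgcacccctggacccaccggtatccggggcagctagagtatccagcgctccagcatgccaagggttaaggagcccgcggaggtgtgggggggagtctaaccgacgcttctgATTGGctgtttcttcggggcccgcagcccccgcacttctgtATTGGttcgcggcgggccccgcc
The Ednrb window held CCAAT on the opposite strand at -146 and -106, and the Ece1 window at -64 and -23, counted to the leftmost base with the start at 0. CCAAT or ATTGG occurred in 5 of the 10 windows of the 7 genes, 2 overlapping ones of Ece1 and those of Edn1, Ednrb and Ece2. It occurred in 33.8% of the 32851 RefSeq promoter windows of this length and was chosen after these sequences were seen. The hexamers AGGTCA and GGGTCA, the nuclear receptor sequence to which NR2F2 binds, were searched on both strands in the 10 windows of the 7 genes. AGGTCA was in 0 of these 10 windows and in 14% of all windows. GGGTCA was in 1 window, of an alternative Ece1 start (opposite strand, at -201), and in 11.6% of all windows. A match, or the lack of one, is a description of the letters and not of binding, and sites outside these windows were not searched.

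Edn1, the gene of the vasoconstrictor endothelin-1, was the most abundant ligand mRNA in the controls. It lies at chr13:42301476-42307990 (mm10, plus strand). It was 10.6, 6.51, 8.31 and 8.03 FPKM in control replicates 1 to 4, against 7.56, 7.69, 4.50 and 5.03 FPKM in Nr2f2 d/d replicates 1 to 4. Nr2f2 d/d replicates 3 and 4 were below every control, and replicates 1 and 2 were within the control range. The means were 8.36 ± 1.69 and 6.20 ± 1.67 FPKM (SD, n = 4 each), and the log2 fold change of -0.42 (standard error 0.203) did not pass the test (limma with Benjamini-Hochberg adjustment, adjusted p = 0.282).

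Edn3, whose peptide acts mainly through EDNRB, lies at chr2:174760619-174784042 (mm10, plus strand). It was 2.39, 2.22, 4.16 and 3.57 FPKM in control replicates 1 to 4, against 4.52, 6.93, 4.12 and 6.88 FPKM in Nr2f2 d/d replicates 1 to 4. In 3 of 4 Nr2f2 d/d libraries it was above every control, and the other one, replicate 3, was just under the highest control. The means were 3.08 ± 0.933 and 5.61 ± 1.502 FPKM (SD, n = 4 each), with a ratio of 1.82. The log2 fold change of 0.77 (standard error 0.232) had an unadjusted p of 0.00987 and did not pass the adjustment (limma with Benjamini-Hochberg adjustment, adjusted p = 0.115).

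Edn2, the third ligand gene, known from the ovary and intestine, lies at chr4:120161206-120167360 (mm10, plus strand). It was 0.0430, 0.0110, 0.0880 and 0.0330 FPKM in control replicates 1 to 4, against 0.310, 0.173, 0.310 and 0.249 FPKM in Nr2f2 d/d replicates 1 to 4. Every Nr2f2 d/d library was above every control (exact two-sided permutation test, p = 0.0286, the smallest that 4 against 4 allows). These values correspond to 4, 1, 10 and 3 fragments in the controls and 28, 18, 42 and 33 in Nr2f2 d/d. Summed over the libraries and related to their totals, 121 fragments against 18 gave a ratio of 5.61, with a 95% interval of 3.403 to 9.785 (exact Clopper-Pearson, counting error only). Replicate 3 held 10 of the 18 control fragments, and without it the ratio was 8.898 (95% interval of 4.37 to 21.08). In the fit with no filter on low values, limma with Benjamini-Hochberg adjustment gave an adjusted p of 0.0267. Among the 2214 genes with a mean of 0.1 to 0.5 FPKM, 7.41% were higher in Nr2f2 d/d without overlap and 5.92% were lower. Even in Nr2f2 d/d, Edn2 was far below the other ligand genes. Of the ovarian markers, 2 of 7 passed the filter on low values and 0 passed the test, and these 2 went in opposite directions. Star was 2.18 to 2.44 FPKM in Nr2f2 f/f and 2.36 to 4.43 FPKM in Nr2f2 d/d, where 3 of 4 libraries were above every control (log2 fold change 0.37, limma with Benjamini-Hochberg adjustment, adjusted p = 0.235). Inha was lower, with 4.175 ± 0.863 FPKM in Nr2f2 f/f and 3.50 ± 0.286 FPKM in Nr2f2 d/d (SD, n = 4 each). Its log2 fold change was -0.21 (limma with Benjamini-Hochberg adjustment, adjusted p = 0.426). Fshr was listed at 0 in all 8 libraries.

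The ligand mRNAs together were 11.5 ± 1.93 FPKM in Nr2f2 f/f and 12.1 ± 2.41 FPKM in Nr2f2 d/d (SD, n = 4 each), with overlapping ranges. Within that sum, Edn1 held 66.2% to 81.3% in the controls and 41.4% to 61.0% in Nr2f2 d/d. The ratio of Edn3 to Edn1 was 0.225 to 0.5004 in Nr2f2 f/f and 0.598 to 1.37 in Nr2f2 d/d, without overlap. This ratio was chosen after the values were seen and is a description.

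**Figure D2:**
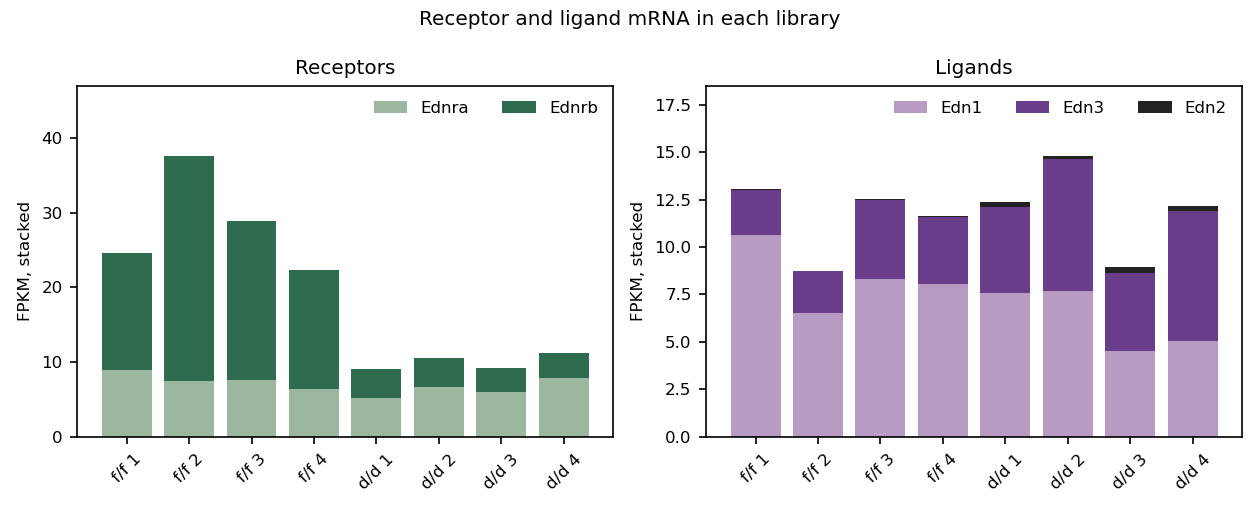
Stacked FPKM (y axis, from 0) of the receptor genes on the left and of the ligand genes on the right in each of the 8 libraries (x axis). The receptor bars are 22.3 to 37.6 FPKM in Nr2f2 f/f and 9.09 to 11.1 FPKM in Nr2f2 d/d, where the dark Ednrb part is the smaller one, while the ligand bars of the genotypes overlap, with an Edn3 part of 2.22 to 4.16 FPKM in Nr2f2 f/f and 4.12 to 6.93 FPKM in Nr2f2 d/d.

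Ece1, the main endothelin-converting enzyme, was the most abundant of the 7 mRNAs in both genotypes. It lies at chr4:137862237-137965229 (mm10, plus strand). It was 43.7, 30.6, 23.7 and 22.8 FPKM in control replicates 1 to 4, against 18.9, 17.2, 22.1 and 18.5 FPKM in Nr2f2 d/d replicates 1 to 4. All Nr2f2 d/d libraries were below all controls, but the highest of them was close to the lowest control. The means were 30.2 ± 9.67 and 19.2 ± 2.07 FPKM (SD, n = 4 each), giving a log2 fold change of -0.60 (standard error 0.199). Its unadjusted p was 0.0165, and it did not pass the adjustment (limma with Benjamini-Hochberg adjustment, adjusted p = 0.146). Without Nr2f2 f/f replicate 1, the highest library, the log2 fold change was -0.41.

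Ece2, a related enzyme best known from neurons, lies at chr16:20629828-20646485 (mm10, plus strand). It was 0.202, 0.192, 0.180 and 0.187 FPKM in control replicates 1 to 4, against 0.0880, 0.139, 0.0930 and 0.172 FPKM in Nr2f2 d/d replicates 1 to 4. The controls were close together, and every Nr2f2 d/d library was below them (exact two-sided permutation test, p = 0.0286, the smallest possible). In the fit with no filter on low values, limma with Benjamini-Hochberg adjustment gave an adjusted p of 0.144. The annotated gene Gm49333 on the same strand shares 57.5% of the exon bases of Ece2, so these values are uncertain.

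At an adjusted p under 0.05, limma called 0 of the 4 tested genes other than Ednrb, against 2.62% of all genes tested (375 of 14323). At an unadjusted p under 0.05 there were 2 of these 4, Edn3 higher and Ece1 lower, and both also met the fold of at least 1.4 used in the study. Of all genes tested, 8.8% met both limits, 4.7% with an increase and 4.1% with a decrease. Of the same 4 genes, Ece1 was lower without overlap and 0 were higher, where 15.4% of all genes did not overlap, 9.91% lower and 5.49% higher. The order of levels from the highest was Ece1, Ednrb, Edn1, Ednra, Edn3, Ece2 and Edn2 in Nr2f2 f/f. The ranges of Ece1 and Ednrb overlapped there, as did those of Edn1 and Ednra. In Nr2f2 d/d the order was Ece1, Ednra, Edn1, Edn3, Ednrb, Edn2 and Ece2, and the ranges of Ednra, Edn1 and Edn3 overlapped. Thus Ednrb moved from the second place to the fifth.

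Markers of endothelium, where EDNRB and ECE1 are typically found, were lower in Nr2f2 d/d. All 10 markers had a negative log2 fold change, 9 did not overlap, and 7 passed the test, against 9.91% and 1.53% of all genes tested in that direction. All 10 stayed negative with each library left out, but the calls numbered 1, 5, 7 and 2 without Nr2f2 f/f replicates 1 to 4 and 0, 0, 7 and 5 without Nr2f2 d/d replicates 1 to 4 (limma, adjusted p under 0.05). Where 0 were called, 9 of the 10 had an unadjusted p under 0.05 in both fits. The markers had a median log2 fold change of -0.74 beside -0.02 over all genes tested. Pecam1, an adhesion molecule of endothelial junctions, fell from 58.8 ± 9.62 to 31.0 ± 3.46 FPKM (SD, n = 4 each), with a log2 fold change of -0.90 (limma with Benjamini-Hochberg adjustment, adjusted p = 0.0192). Cdh5, the endothelial cadherin, had a log2 fold change of -0.99 and Kdr, the main VEGF receptor, of -0.64 (limma with Benjamini-Hochberg adjustment, adjusted p = 0.0149 and 0.0457). The other 3 that passed were Emcn, Egfl7 and Erg, at -0.70, -0.73 and -0.79. Esam, another endothelial adhesion molecule, had a log2 fold change of -0.74 (limma with Benjamini-Hochberg adjustment, adjusted p = 0.0151). The mean log2(FPKM + 0.5) of the 10 markers was 4.69 to 5.20 in Nr2f2 f/f and 3.98 to 4.31 in Nr2f2 d/d. Ednrb relative to that mean was -1.19 to -0.06 in Nr2f2 f/f and -2.41 to -1.83 in Nr2f2 d/d on the log2 scale, a difference of -1.55 between the group means. Ece1 relative to the same mean was -0.22 to 0.27 in Nr2f2 f/f and 0.05 to 0.24 in Nr2f2 d/d, with overlapping ranges. The part of the endothelial markers in the levels of Ece1 and Ednrb was not tested.

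**Figure D3:**
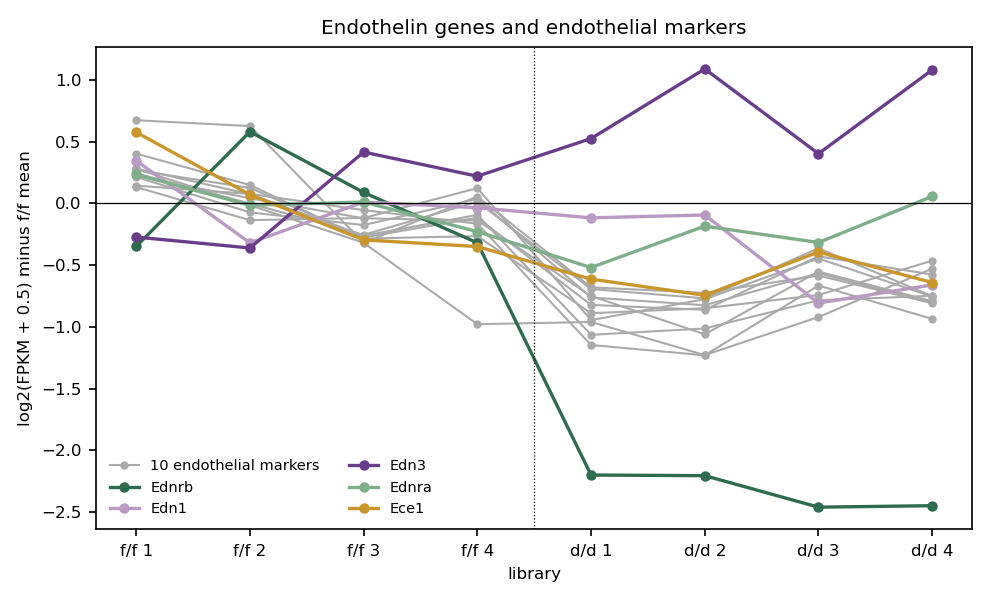
Log2(FPKM + 0.5) of 5 endothelin genes (colours) and 10 endothelial markers (grey) in each library (x axis), each gene relative to its own Nr2f2 f/f mean; lines join the libraries of 1 gene and do not stand for an order. In Nr2f2 d/d, Ece1 lies within or just above the band of endothelial markers, Ednrb lies far below them, and Edn3 is above 0 in all 4 libraries.

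Markers of other cell types of the uterus were read in the same way. Among 10 smooth muscle markers 0 passed the test (limma, adjusted p under 0.05), with a median log2 fold change of 0.14. Acta2 had 408 ± 97.6 and 452 ± 157 FPKM, and Myh11 150 ± 25.9 and 164 ± 67.0 FPKM (SD, n = 4 each). Of 8 pericyte markers 0 passed, but 7 had a negative log2 fold change, down to -0.44 for Kcnj8, 4 of them at an unadjusted p under 0.05, and the median was -0.35. Pdgfrb, with 20.6 ± 2.20 and 19.8 ± 3.79 FPKM, was nearer to 0 than most of them, at -0.07. Over all genes tested, 1.09% rose and 1.53% fell. In the lists of 8 stromal and 9 epithelial markers 1 gene each rose, Dcn with a log2 fold change of 0.79 and Krt8 with 0.74 (limma with Benjamini-Hochberg adjustment, adjusted p = 0.0192 and 0.00829). The stromal list was split, with 4 members above and 4 below 0, from -0.66 for Vim to 1.67 for Col1a1, neither of which passed, and a median of 0.23. All 9 epithelial markers were above 0, with a median of 0.34, and Epcam had 91.9 ± 26.3 and 93.5 ± 8.74 FPKM. Of 6 mesothelial markers 1 rose, Msln, at a log2 fold change of 0.80 (limma with Benjamini-Hochberg adjustment, adjusted p = 0.0398), with a list median of 0.47. Of 6 gland markers 1 fell, the protease inhibitor gene Spink1, from 115 to 1332 FPKM in the controls to 0.729 to 24.4 FPKM in Nr2f2 d/d (log2 fold change -5.93, limma with Benjamini-Hochberg adjustment, adjusted p = 0.0292). This list was split, since Prss28 and Prss29 had log2 fold changes of -3.52 and -4.18, Foxa2 and Lif of -0.02 and -0.06, and Cxcl15 of 1.02, none of which passed, so that the median of -1.79 lay between these sets. Among 7 macrophage markers 0 passed, with a median of 0.31. Of the 8 glial and melanocyte markers 3 passed the filter on low values and 0 the test, with a median of 0.15. Of these 3, Gfap, a gene of glial filaments, was 0.562 to 0.665 FPKM in Nr2f2 f/f and 0.925 to 2.04 FPKM in Nr2f2 d/d, without overlap, at a log2 fold change of 0.80 (limma with Benjamini-Hochberg adjustment, adjusted p = 0.0516). The mean log2(FPKM + 0.5) of the 8 markers was 0.270 to 0.476 in Nr2f2 f/f and 0.480 to 0.767 in Nr2f2 d/d. Sox10, which defines both lineages, was at most 0.0560 FPKM in any library.

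Genes around the endothelin receptors were read from 6 lists of 98 genes, of which 74 were tested. Of these 74, 3 rose and 8 fell at an adjusted p under 0.05 (limma with Benjamini-Hochberg adjustment), against 1.09% and 1.53% of all genes tested. Gdnf, 1 of the 3 that rose, met the filter on low values only through the Nr2f2 d/d libraries, and of the other 73 genes 2 rose. Leaving out 1 control at a time (replicates 1 to 4) gave 2, 6, 5 and 4 calls, and leaving out 1 Nr2f2 d/d library (replicates 1 to 4) gave 1, 2, 10 and 5 calls. The median log2 fold change of the 74 genes was -0.11.

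Among the peptide processing genes 6 of 12 were tested and 0 passed, with a median of -0.18. Furin, which makes big endothelin, had 19.4 ± 1.73 FPKM in Nr2f2 f/f and 19.4 ± 1.97 FPKM in Nr2f2 d/d (SD, n = 4 each), and its log2 fold change was -0.01 with a standard error of 0.0953. Mme, the membrane peptidase that degrades endothelins, varied widely within both groups, from 40.7 to 152 FPKM in Nr2f2 f/f and from 30.4 to 158 FPKM in Nr2f2 d/d, and no difference could be seen above that spread (limma with Benjamini-Hochberg adjustment, adjusted p = 0.716).

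In the list of G protein and calcium coupling 37 genes were tested, 4 fell and 0 rose, with a median of -0.12. The genes of the α-subunits that carry the receptor signal to phospholipase C did not pass. Gnaq had 13.2 ± 1.26 and 11.5 ± 0.646 FPKM (SD, n = 4 each; limma with Benjamini-Hochberg adjustment, adjusted p = 0.239). Gna11 had 22.2 ± 0.934 and 23.2 ± 1.24 FPKM (SD, n = 4 each; limma with Benjamini-Hochberg adjustment, adjusted p = 0.630). Rgs2, which shortens Gq signaling, was 138, 144, 165 and 174 FPKM in control replicates 1 to 4, against 61.8, 75.1, 54.7 and 85.3 FPKM in Nr2f2 d/d replicates 1 to 4. Its highest Nr2f2 d/d library was well below its lowest control, at a log2 fold change of -1.18 (standard error 0.149, limma with Benjamini-Hochberg adjustment, adjusted p = 0.0132). Rgs5, a pericyte and smooth muscle member of the same family, fell from 144 ± 13.8 to 90.3 ± 7.28 FPKM (log2 fold change -0.67, limma with Benjamini-Hochberg adjustment, adjusted p = 0.0154). Arrb1, a β-arrestin that uncouples activated receptors, fell by 0.65 and Gnai1, an inhibitory α-subunit, fell by 0.52 on the log2 scale (limma with Benjamini-Hochberg adjustment, adjusted p = 0.0398 and 0.0399). Other genes of the list with such roles did not pass, with log2 fold changes of -0.53 for Rgs4, -0.23 for Grk5, -0.07 for Arrb2 and -0.004 for Grk2.

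In the nitric oxide and cGMP arm, through which endothelial EDNRB relaxes vessels, 9 genes were tested, 2 fell and 0 rose, with a median of -0.27. The list was split, with 4 of the 9 above 0. Nos1, the neuronal nitric oxide synthase gene, had 0.644 ± 0.243 FPKM in Nr2f2 f/f and 1.42 ± 0.443 FPKM in Nr2f2 d/d (SD, n = 4 each) and did not pass, at a log2 fold change of 0.74 (limma with Benjamini-Hochberg adjustment, adjusted p = 0.104). Nos3, the endothelial nitric oxide synthase, was 11.6, 8.64, 9.21 and 9.05 FPKM in control replicates 1 to 4, against 4.82, 5.75, 6.67 and 6.14 FPKM in Nr2f2 d/d replicates 1 to 4. It was lower in all 4 Nr2f2 d/d libraries, at a log2 fold change of -0.67 (standard error 0.122, limma with Benjamini-Hochberg adjustment, adjusted p = 0.0335), near the median of the endothelial markers. Genes on the opposite strand share 32.3% of its exon bases, and the strand setting of the counting is not given in the sources used here. Gucy1b1, a subunit of the nitric oxide receptor guanylyl cyclase, fell from 5.29 ± 0.535 to 3.77 ± 0.200 FPKM (SD, n = 4 each; limma with Benjamini-Hochberg adjustment, adjusted p = 0.0481).

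The genes that respond to EDN1 and EDNRA in the embryonic pharyngeal arches moved in both directions. Of 11 genes 4 were tested, 2 rose and 1 fell, with a median of 0.19. Dlx5 and Dlx6, neighbouring homeobox genes that depend on EDNRA in the arches, rose from 20.4 ± 1.76 to 30.2 ± 2.91 FPKM and from 9.28 ± 0.528 to 14.3 ± 1.77 FPKM (SD, n = 4 each). Their log2 fold changes were 0.56 and 0.59 (limma with Benjamini-Hochberg adjustment, adjusted p = 0.0262 and 0.0251). Hand2, which lies downstream of them in the arches and is a stromal progesterone response gene in the uterus, fell by 0.71 on the log2 scale (limma with Benjamini-Hochberg adjustment, adjusted p = 0.0388). Hand2os1 on the opposite strand shares 19.6% of the exon bases of Hand2.

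Of 12 neural crest genes around EDN3 and EDNRB, 6 were tested, 1 rose and 0 fell, with a median of -0.09. Ret, Gfra1 and Kit, the genes of the RET receptor, its co-receptor for GDNF and the receptor of melanocyte precursors, were each lower in every Nr2f2 d/d library than in every control but did not pass. Their log2 fold changes were -0.33, -0.68 and -0.60 (limma with Benjamini-Hochberg adjustment, adjusted p = 0.0989, 0.0501 and 0.0629). Of all genes tested, 9.91% were lower without overlap. The other 3 tested genes of this list had log2 fold changes above 0. Gdnf, the ligand of the RET receptor in enteric neuron precursors, was 0.299, 0.237, 0.393 and 0.434 FPKM in control replicates 1 to 4, against 2.01, 1.32, 1.30 and 1.43 FPKM in Nr2f2 d/d replicates 1 to 4. All 4 controls lay under 0.5 FPKM, so that Gdnf met the filter on low values only through the Nr2f2 d/d libraries. Every Nr2f2 d/d library was well above the highest control, at a log2 fold change of 1.253 (standard error 0.144, limma with Benjamini-Hochberg adjustment, adjusted p = 0.00834). Among 12 tested transcription factors known at the Edn1 or Ednrb genes, 1 fell and 0 rose, with a median of -0.03. The one that fell was Sox18, an endothelial factor, from 37.4 ± 4.16 to 21.9 ± 3.61 FPKM (SD, n = 4 each), with a log2 fold change of -0.77 (limma with Benjamini-Hochberg adjustment, adjusted p = 0.0281).

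**Figure D4:**
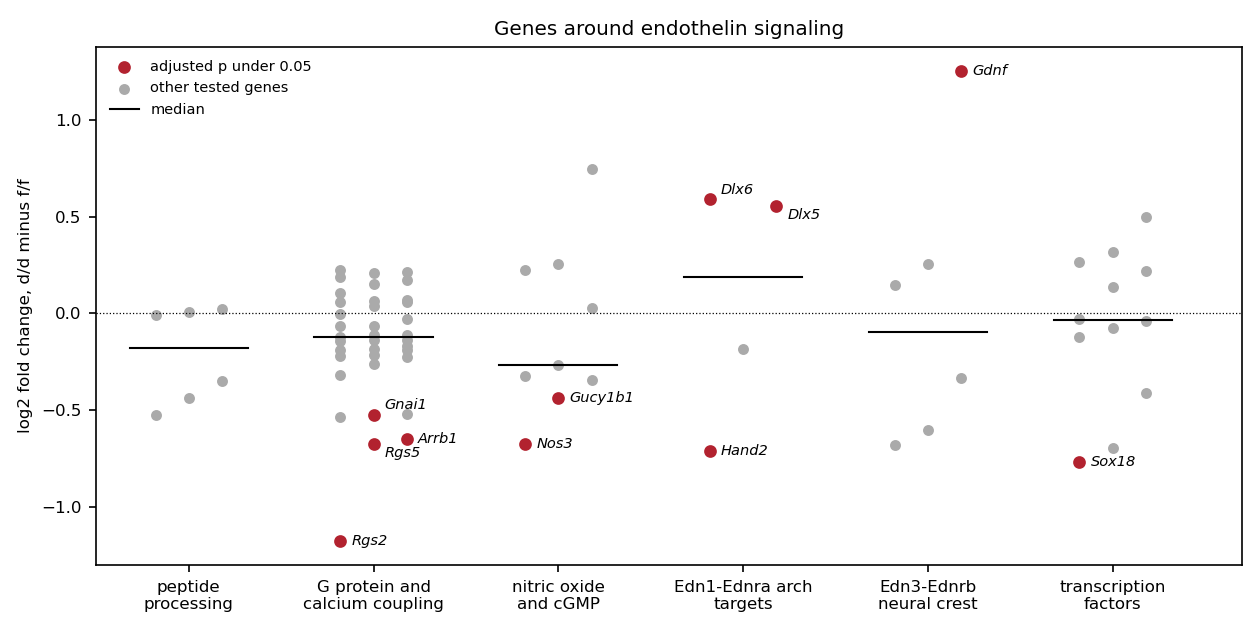
Log2 fold change of Nr2f2 d/d minus Nr2f2 f/f (y axis) for the 74 tested genes of the 6 lists around endothelin signaling (x axis); each point is 1 gene, red points passed an adjusted p of 0.05, and black lines are list medians. The 8 red genes below 0 include Rgs2 at -1.18, and the 3 above 0 are Gdnf, Dlx5 and Dlx6.

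The tested genes whose profiles were nearest to that of Ednrb were Fam189a1, Sned1, Slc7a2, Itgb8 and Aox3. Likeness was the root mean square difference of the centred log2(FPKM + 0.5) values over the 8 libraries, from 0.376 for Fam189a1 to 0.507 for Aox3. It was dominated by the difference between the genotypes, which chose Ednrb, and is a description. Fam189a1 was 3.03 to 4.17 FPKM in Nr2f2 f/f and 0.157 to 0.840 FPKM in Nr2f2 d/d. Aox3, a xenobiotic oxidase gene, was 3.86, 19.7, 10.8 and 5.51 FPKM in Nr2f2 f/f replicates 1 to 4, with the same order of the controls as Ednrb, and 2.00 to 2.82 FPKM in Nr2f2 d/d. Sned1, a matrix protein gene, was 7.87 to 9.27 FPKM in the controls and 1.92 to 3.04 FPKM in Nr2f2 d/d, and its controls did not share the peak of Ednrb in replicate 2. Of the exon bases of Sned1, 19.6% also belong to other genes. Slc7a2, a transporter of arginine, the substrate of nitric oxide synthases, was 8.21 to 12.4 FPKM in Nr2f2 f/f and 1.061 to 2.32 FPKM in Nr2f2 d/d. Itgb8, an integrin subunit gene, was 1.86 to 3.28 FPKM in Nr2f2 f/f and 0.394 to 0.750 FPKM in Nr2f2 d/d.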

How the data were processed

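RNA of the whole uterus was measured in 8 libraries (4 Nr2f2 f/f, 4 Nr2f2 d/d), with groups and replicate numbers from the sample titles. Whether each library is 1 animal is not given in the sources used here, so p-values measure the spread between these libraries. Numbers in other label fields differ from those of the titles. The authors deposited FPKM, made from 76-bp paired reads of mean quality of at least 20, trimmed with cutadapt 1.12, aligned to mm10 with STAR 2.5.2b and counted with featureCounts 1.5.0-p1; the submitters' processing notes also list Cufflinks 2.0.2 with no role. Annotation, strand setting and formula are not given in the sources used here. FPKM are relative to the library total, so a shift in abundant transcripts moves other genes.

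The tests used log2(FPKM + 0.5), a scale on which changes of low genes are understated. The 14323 genes averaging 0.5 FPKM or more were tested with limma 3.58.1 in R 4.3.3 (eBayes with trend, two-sided, Benjamini-Hochberg adjustment). The authors tested counts with DESeq2, and those counts were not used here. Edn2 and Ece2 had exact permutation tests over the 70 arrangements (SciPy 1.17.1). Totals were recovered as those at which 97.4% to 99.0% of the values of microRNA precursor genes were whole fragments (within 0.1), against 12.0% to 14.0% at other totals. Fragments used exon lengths of GENCODE vM21 for mm10, and intervals cover counting error only. On simulated data for the same 14323 genes, 78 of 100 2-fold and 94 of 100 4-fold changes were recovered, and 13 of 185 calls were unchanged genes.

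The members and lists were chosen with earlier results of these data known. Named genes were the 7 members, Nr2f2, at most 3 passing genes per list with the smallest p, Gnaq, Gna11, Nos3, Mme, Furin, defining markers, and the 5 genes nearest to Ednrb. Gnai1, Rgs4, Grk2, Grk5, Arrb2, Star, Inha, Fshr, Prss28, Prss29, Foxa2, Lif, Cxcl15, Vim, Col1a1, Kcnj8, Nos1, Ret, Gfra1, Kit, Emcn, Egfl7, Erg and Gfap are named outside that rule, after their values were seen. Alternatives were 0.1 or 1 in place of 0.5, a filter at 1 FPKM or none, quantile or median-ratio scaling, eBayes robust or without trend, a replicate block, and each library left out. The block by description numbers, and the Edn2 ratio and endothelial calls with each library left out, were added after seeing the data.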

Additional observations from a re-analysis of the deposited data

Results flagged for a closer look

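In 86 groups of 4 libraries, 5 held a library farther from the others than Dixon's 95% critical value for the group's range allows, and chance flags about 1 in 20 groups. Among the endothelin genes no such library was found. Nr2f2 was 6.90 FPKM in Nr2f2 d/d replicate 3, below 9.42 to 9.74 FPKM in the other 3 libraries of the group. Kdr was 10.5 FPKM in the same library, above 7.79 to 8.24 FPKM in the others. Gucy1b1 was 4.495 FPKM in Nr2f2 f/f replicate 3, below 5.52 to 5.63 FPKM in the other controls. Dcn was 673 FPKM in Nr2f2 d/d replicate 2, below 713 to 719 FPKM in the others. Spink1 was 1332 FPKM in Nr2f2 f/f replicate 2, above 115 to 288 FPKM in the other controls, and that library also had the highest Ednrb. Nr2f2 f/f replicate 1, with the 288 FPKM, had the lowest Ednrb of the controls.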

How the results depend on the processing

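The log2 fold changes of Edn1, Edn3, Ednra and Ece1 kept their direction and stayed short of the adjusted threshold under all 18 alternatives, at -0.53 to -0.29, 0.65 to 0.91, -0.34 to -0.15 and -0.71 to -0.41, and Ednrb stayed at -2.45 to -2.09. Edn2 was 0.45 to 0.54 and Ece2 -0.19 to -0.12 with each library left out, at an exact permutation p of 0.0571, the smallest that 3 against 4 allows. The added constant moved them more, Edn2 to 1.33 with 0.1 and 0.27 with 1 added, and Ece2 to -0.40 and -0.08. The Edn2 fragment ratio was 4.56 to 8.898 with each library left out. With no filter Ece2 was -0.15, with a limma adjusted p of 0.144. The genes called numbered 375, and 42 to 347 with 1 library left out: 62, 347, 210 and 98 without Nr2f2 f/f replicates 1 to 4, and 56, 42, 278 and 326 without Nr2f2 d/d replicates 1 to 4. The genes of the 6 lists called numbered 11, and 1 to 10 with 1 library left out. Of the genes named as passing, Nr2f2, Gdnf (with controls under the filter) and Krt8 passed in all 8 of these fits, Rgs2 in 7, Rgs5, Pecam1, Cdh5 and Esam in 5, Dcn, Egfl7 and Erg in 4, Dlx6 in 3, Dlx5, Hand2, Nos3, Sox18, Kdr, Emcn and Spink1 in 2, and Arrb1, Gnai1, Gucy1b1 and Msln in 1, and all but the first 3 were lost without Nr2f2 d/d replicate 1. With the replicate number of the titles as a block 1 gene was called in all and 0 in the lists (2472 genes had an unadjusted p under 0.05), and 0 of 4 controls correlated best with the Nr2f2 d/d library of their number (same-number r of -0.20 to 0.05). By the numbers of the description field 3 pairs share a number, at an r of -0.20 to 0.15, and a replicate block by these called 0 genes in all and 0 in the lists (3186 at an unadjusted p under 0.05). By neither set was every r over 0.1. With 4 libraries per group this cannot exclude a pairing, and the labels give only a number. Of the calls, 41.6% were higher in Nr2f2 d/d, and 52.7% of 364 with median-ratio scaling. Where a call was lost, the cause was not tested. With 1 to 10 fragments per control library, the size of the Edn2 ratio is limited by depth.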
